A study of Mus musculus with 45 samples.

Results

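The comparison described here is the first day in culture, HSCs plated for 1 day (d1) against HSCs kept for 2 hours in suspension (d0). The 6 libraries, 3 of d0 and 3 of d1, were chosen by the titles of the table's columns and belong to a series of 45 libraries. The other IVT libraries, 9 in all from days 4, 8 and 12 of the same culture, were used to follow the changes further. Sorted HSCs of chow-fed mice and of vehicle-treated mice, with 4 libraries each, served as an outside reference. Hepatic stellate cells (HSCs) had been isolated from livers of male mice, labelled C57BL6/J and named C57BL/6JBomTac in the study's methods, and sorted by the autofluorescence of their retinoids. No gene was deleted and no drug was given. All groups of the IVT experiment received the same serum-containing DMEM with antibiotics. The d0 cells had not been plated and were spun down and frozen, whereas cultured cells were harvested with a lysis reagent, so that plating, time in medium and harvest cannot be told apart. Gene counts came from polyA-selected RNA.

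HSCs are the vitamin A-storing pericytes of the liver. In injured liver they turn from a quiescent state into contractile, matrix-producing myofibroblasts, and plating freshly isolated HSCs on plastic is a classic way to set off this activation. The first day in a dish therefore combines recovery from isolation, attachment to a stiff surface and exposure to serum. The comparison asks how far the RNA profile moved in this first step and how much of the move lasted.

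The 23999 gene rows of the table were treated as unnamed genes, because the counts did not follow the listed identifiers. Rows listed as olfactory or vomeronasal receptors, genes silent in liver cells, reached 4 CPM over the d0 and d1 libraries in 47.6% of 1461 cases, against 47.3% of all rows. CPM is the count of a row per 1e6 scaled library counts. Marker genes of HSCs, myofibroblasts or other liver cells could therefore not be checked, and rows are called below by their place in the table (row 1 is the first gene line). Compared rows are always the same line in different libraries. In bulk RNA, fewer cells of a type and less RNA per cell cannot be told apart.

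Total counts were between 3556607 and 5376383 in the d0 libraries and between 6570021 and 7062900 in the d1 libraries. The d0 libraries varied far more among themselves than the d1 libraries. The biological coefficient of variation, the spread between replicates beyond counting error, was 0.202 in d0, 0.0362 in d1 and between 0.0171 and 0.0301 in the later groups. d0 replicate B stood apart, with a chi-square per degree of freedom of 13.5 against replicate A and 15.4 against replicate C, while A and C gave 4.52. In the d1 group this value was between 1.58 and 1.98. Of 11301 rows with a mean of at least 4 CPM on d0, 216 were at least 2-fold higher and 348 at least 2-fold lower in d0 replicate B than in the mean of the other d0 libraries. The same count gave 0 higher and at most 1 lower row for any d1 library. In the later groups the chi-square per degree of freedom was between 1.08 (d8 replicates A and B) and 1.67 (d12 replicates A and B). Some of these pairs were thus close to counting noise. No pair of libraries in a group agreed within counting noise, so none was taken as a library deposited again. This does not tell separate animals from separate wells. The sources call the cultures technical triplicates and the RNA biological replicates, and p-values may thus measure only technical spread. The counts of calls, of abundant, new and gone rows and of rows kept to d12 are given below also without d0 replicate B, as are the turnover, the share of the highest rows and the rows detected.

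On the first day of culture, most expressed rows changed. Of 13655 rows tested, 4733 were raised on d1 (34.7% of those tested) and 4469 were lowered (32.7%), with edgeR's quasi-likelihood test, Benjamini-Hochberg adjustment, FDR of at most 0.05 and an average log2CPM above 2. These calls covered 80.7% of the 11408 rows above the expression threshold. With TMM scaling, more rows fell than rose at least 4-fold, whereas with library totals (below) these numbers were nearly equal. At least 4-fold changes were called for 504 raised rows (3.69%) and 1063 lowered rows (7.78%). At least 16-fold changes were called for 93 raised and 262 lowered rows. The median log2FC was 0.90 for raised and -1.03 for lowered rows. Over all rows tested, the median size of the change was 0.83 on the log2 scale. The libraries of the groups did not overlap in 93.5% of called rows and in 72.8% of all rows tested. The plot of d1 against d0 shows the rows that fell at least 4-fold spread over a wide range of d0 levels, up to the highest row.

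**Figure D1:**
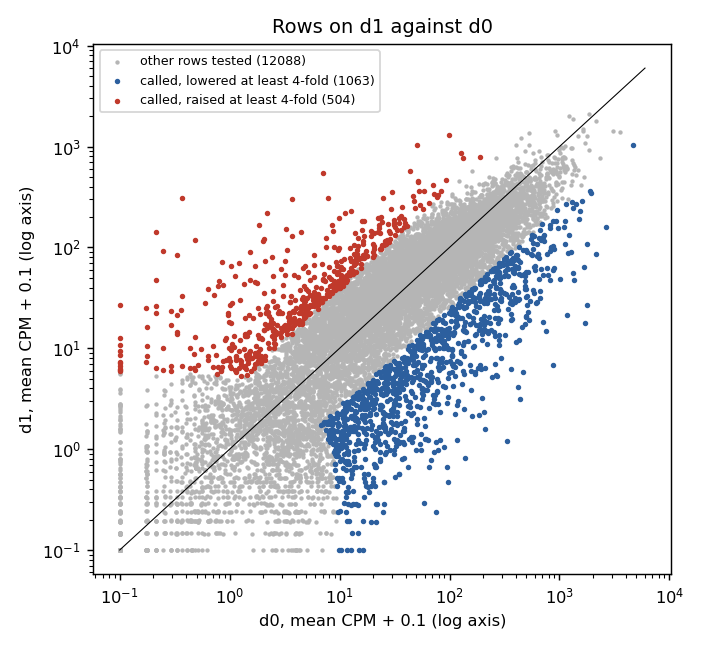
Mean CPM on d1 against mean CPM on d0 for the 13655 rows tested, on log axes with 0.1 added, each point a row and each mean over 3 libraries. Blue points mark the 1063 rows called and lowered at least 4-fold, red points the 504 raised at least 4-fold, and the line marks equal levels.

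Without d0 replicate B, 4937 rows were raised and 4367 lowered, of which 552 and 960 at least 4-fold. Of the calls with all libraries, 95.8% of the raised and 92.5% of the lowered rows had the same call without it. The fit used a spread shared by all 15 IVT libraries, which is lower than that of d0. With a variance of its own for each group, in limma voom, 4055 rows were raised and 4049 lowered, of which 518 and 1051 at least 4-fold. The balance of rises and falls depended on the scaling. Scaled by library totals alone, 6144 rows were raised and 3315 lowered, so that 65.0% of calls were rises, against 51.4% with TMM factors. The median row shifted by 0.33 on the log2 scale between these scalings. At least 4-fold changes were then 800 raised and 834 lowered rows.

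The first day was the largest of the steps measured by these counts, although the steps differ in length. From d1 to d4, 3790 rows were raised (27.8%) and 3892 lowered (28.5%). From d4 to d8, 2065 rows were raised (15.1%) and 1803 lowered (13.2%). From d8 to d12, 1474 rows were raised (10.8%) and 1551 lowered (11.4%). Deep falls were concentrated in the first step, with 1063 rows lowered at least 4-fold on d1, then 97, 26 and 15. Rises of at least 4-fold numbered 504, 418, 155 and 27 in the same order. The median size of the change over all rows was 0.83 in the first step, then 0.48, 0.22 and 0.20 on the log2 scale. Neighbouring steps share a group of libraries, and differences between steps were not tested.

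**Figure D2:**
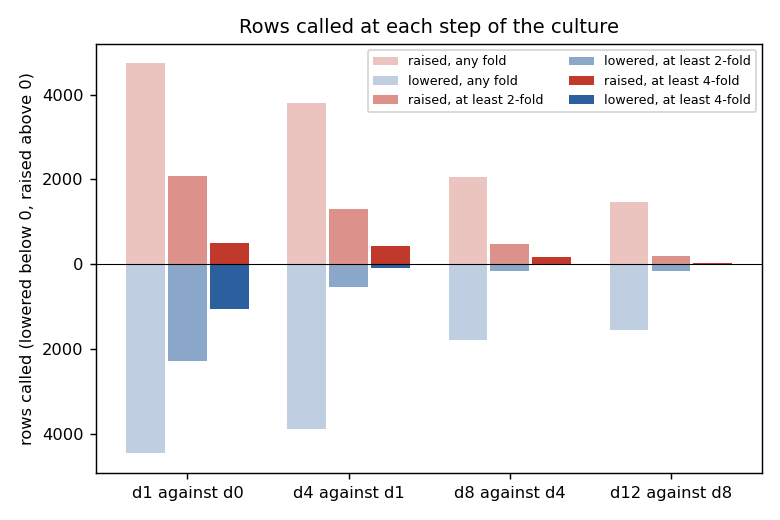
Rows called at each step of the culture, with raised rows above 0 and lowered rows below 0, for any fold, at least 2-fold and at least 4-fold (from pale to dark). Rows lowered at least 4-fold were 1063 on d1, against 97 at the next step.

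A measure that uses library totals and no TMM factors gave a similar picture. The turnover of counts is the summed gain, in percent of library counts, of all rows that gained, which equals the summed loss of the others. Between the means of d0 and d1 it was 27.8%, and 27.7% without d0 replicate B. Over the 9 pairs of a d0 and a d1 library it lay between 27.0% and 29.5%. Pairs of d0 libraries differed by 6.65% to 12.0% and pairs of d1 libraries by 2.74% to 3.20%, so the ranges did not overlap. Turnover was 16.0% from d1 to d4, 7.61% from d4 to d8 and 6.38% from d8 to d12. On this scale of library totals, losses were carried by fewer rows than gains. The 352 rows with the largest losses held 50% of the loss, whereas 1039 rows were needed for 50% of the gain. The 8730 rows that lost counts included 100 that together held 25.5% of the loss. The first 100 of the 9953 rows that gained held 13.5% of the gain.

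The profile also became flatter on d1, with counts spread over more rows. The 100 highest rows of a library held 11.02%, 10.6% and 12.5% of its counts in d0 replicates A, B and C. They held 8.85%, 8.83% and 9.08% in d1 replicates A, B and C. All d0 libraries lay above all d1 libraries, and the difference was -2.48 percentage points with a two-sided p of 0.1 by exact permutation (n = 3 and 3), which is the smallest that 3 against 3 can give. Without d0 replicate B the difference was -2.86 points. The number of highest rows needed to hold 50% of the counts rose from 1203 ± 71.4 on d0 to 1652 ± 16.5 on d1 (SD, n = 3 each), with exact permutation p = 0.1. On d12 it was 1660 ± 25.8 (SD, n = 3).

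**Figure D3:**
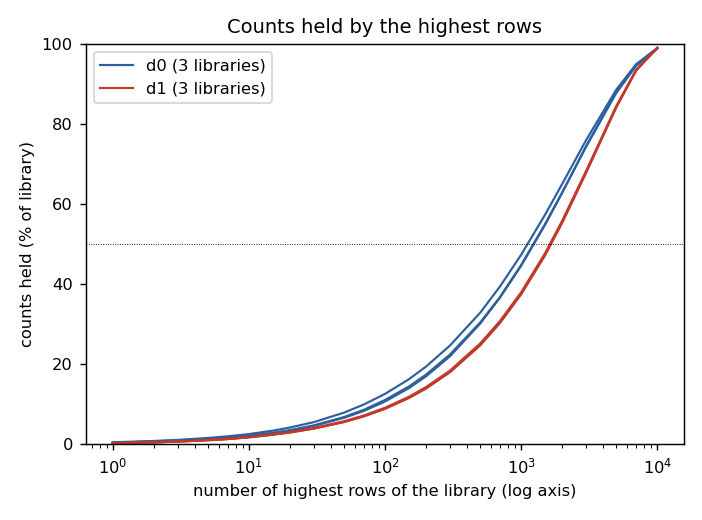
Percent of library counts held by the highest rows of each library, against the number of those rows on a log axis. The 3 d0 libraries (blue) run above the 3 d1 libraries (red) and cross the dotted line at 50% between 1121 and 1249 rows, against 1633 to 1662 rows for d1.

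Although counts were spread more evenly, fewer rows were detected. With every library thinned to 3556607 counts, rows with at least 1 count numbered 15789, 15319 and 15753 in d0 replicates A, B and C and 15020, 14878 and 14787 in d1 replicates A, B and C. The groups did not overlap, and the difference was -725 rows with exact permutation p = 0.1 (two-sided, n = 3 and 3). Without d0 replicate B it was -876 rows. Without thinning, the deeper d1 libraries came close to d0, with a difference of -239 rows and exact permutation p = 0.3. By d12 the number at equal depth was 15629 ± 54.8 (SD, n = 3), against 15620 ± 262 on d0.

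Rows abundant in suspension bore a large part of the loss. The 500 highest rows of d0 held 30.9 ± 1.53% of the counts on d0 and 19.1 ± 0.235% on d1 (SD, n = 3 each). Of these rows, 443 were lowered and 26 raised, against 32.7% and 34.7% of all rows tested. At least 4-fold lower were 107 rows, or 21.4% (21% to 22% with each d0 or d1 library left out in turn), against 7.78% of all rows tested. Of the 13655 rows tested, only the 11408 above the log2CPM threshold could be called, which lowers these background shares. Ranking and measuring in the same d0 libraries favours a fall. With rows ranked in 1 d0 library and measured with the other d0 libraries, the share was between 20.2% and 22.4%. Without d0 replicate B it was 21.6%, and with library totals 18.6%. Among the 500 highest rows of d1 were 257 of them. Among the 100 highest rows of d0, 29 were lowered at least 4-fold and 49 remained among the 100 highest of d1. The 107 rows together held 7.76 ± 0.636% of counts on d0 and 1.15 ± 0.0278% on d1 (SD, n = 3 each). Their median level went from 672 CPM on d0 to 81.2 CPM on d1 and 64.8 CPM on d12.

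The highest rows of all showed this unevenness. Row 11319, the highest on d0, had 4389.9, 3822 and 5683 CPM in d0 replicates A, B and C and 970.5, 1059 and 1065 CPM in d1 replicates A, B and C. The groups did not overlap, and the log2FC was -2.17 ± 0.10 (SE; FDR 1.87e-12). Row 2951 had 2369.6, 2306 and 3274 CPM on d0 and 154, 167 and 159 CPM on d1, a log2FC of -4.05 ± 0.12 (SE; FDR 7.37e-15). It went from rank 4 to rank 1641. Row 5533 had 1967, 1918 and 2603 CPM on d0 and 83.9, 90.6 and 84.2 CPM on d1, a log2FC of -4.65 ± 0.10 (SE; FDR 3.41e-16).

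Both rows had levels on d1 that no d0 library approached. Both fell further by d12, to a mean of 19.6 CPM in row 2951 and 18.5 CPM in row 5533. Row 12444 instead dipped and came back. It had 1762, 1704 and 2289.97 CPM on d0 and 316, 342 and 371 CPM on d1, a log2FC of -2.48 ± 0.09 (SE; FDR 1.03e-13). Its mean was 1364 CPM on d12, with a log2FC of 1.99 against d1 and -0.49 against d0. Row 17654 had 1696, 1612 and 2364 CPM on d0 and 363, 347 and 375 CPM on d1, and stayed low with a mean of 488 CPM on d12.

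Falls of less than 4-fold were found in row 7597, which went from a mean of 3540.3 to 1395 CPM, in row 14236, from 3087 to 1411 CPM, and in row 23728, from 2362 to 764 CPM. The changes of rows 3948 and 9354 were small. Row 3948 had 2058, 1973 and 2414 CPM on d0 and 1742, 1755 and 1888 CPM on d1 (log2FC -0.26, FDR 0.00152), and with library totals its log2FC was 0.07 and not called. Row 9354 had 1665, 2031 and 1909 CPM on d0 and 2075, 2055 and 2241 CPM on d1 (log2FC 0.18, FDR 0.0165). Of the 10 highest d0 rows, 9 were thus lowered, 5 of them at least 4-fold, and row 9354 was raised.

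**Figure D4:**
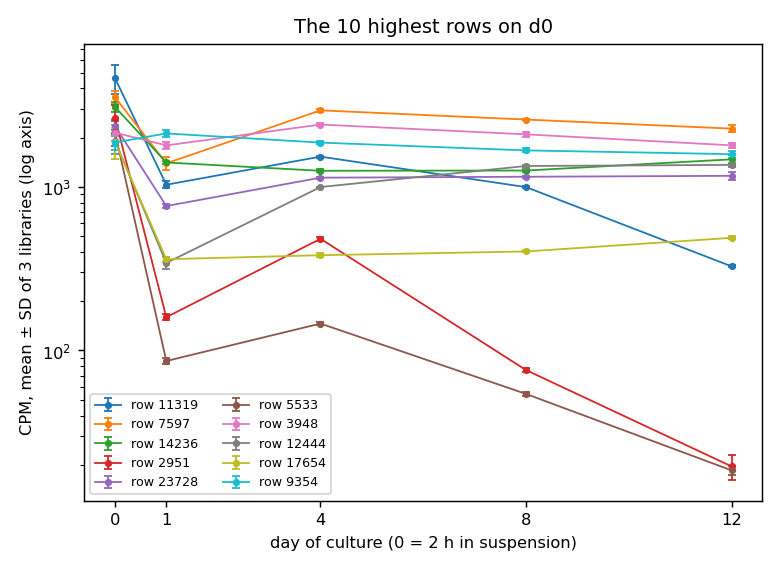
CPM of the 10 highest rows of d0 against the day of culture, as mean ± SD of 3 libraries on a log axis. Rows 2951 and 5533 fall to means of 160 and 86.2 CPM on d1 and below 20 CPM on d12, row 12444 falls to 343 CPM and returns to 1364 CPM, and rows 3948 and 9354 stay near their d0 level.

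Of the 500 highest rows of d1, 257 were also among the 500 highest of d0. The 500 highest rows of d1 held 22.95 ± 1.24% of counts on d0 and 24.8 ± 0.242% on d1 (SD, n = 3 each). Raised at least 4-fold were 23 of them (4.6%), against 3.69% of all rows tested. Lowered at least 4-fold were 3 (0.6%), against 7.78%. Ranking and measuring in the same d1 libraries favours a rise. Row 9354 was the highest on d1 and row 6798 came next. Row 6798 had 1121, 1292 and 1223 CPM on d0 and 2018, 1966 and 2109 CPM on d1, a log2FC of 0.74 ± 0.06 (SE; FDR 1.97e-09). The groups did not overlap. Row 10723 had the largest rise of the 10, from 587, 429 and 559 CPM on d0 to 1352, 1336 and 1407 CPM on d1, a log2FC of 1.38 ± 0.08 (SE; FDR 7.28e-11). Row 14751 rose from a mean of 1320 to 1892 CPM and row 16488 from 904 to 1424 CPM. Rows 3948, 9778, 14236 and 7597 were lowered and still among the 10 highest, although row 9778 turned from a log2FC of -0.19 to a called rise of 0.14 with library totals. Row 12932, at 1784, 1338 and 1750 CPM on d0 and 1456, 1468 and 1525 CPM on d1, did not pass the test (log2FC -0.13, FDR 0.142). It was called lowered without d0 replicate B (log2FC -0.24) and raised with library totals (log2FC 0.20). None of the 10 was thus a row absent on d0.

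Changes of at least 4-fold were spread unevenly over expression levels. Among 2459 rows with a mean of 4 to 16 CPM over the 6 libraries, 7.77% were raised and 15.2% lowered at least 4-fold. Among 3845 rows with 64 to 256 CPM, 2.00% were raised and 6.71% lowered at least 4-fold. Among 925 rows over 256 CPM, 0.865% were raised and 10.6% lowered at least 4-fold. In this highest class 70.3% of rows were lowered and 16.5% raised at any fold, with a median log2FC of -0.58. At any fold, rows of 16 to 64 CPM went the other way, with 51.1% raised and 30.6% lowered. At least 4-fold, 4.68% of them were raised and 8.11% lowered. These shares and medians by level rest on TMM scaling. Library totals moved the median row by 0.33 on the log2 scale toward rises, and shares by level were not measured with them. At most 3 reads were counted per position, which caps abundant rows and can make their changes appear smaller.

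The largest falls took rows from a mean of at least 50 CPM to under 10 CPM. Among rows with at least 50 CPM in the higher group and no overlap, 2704 were lowered and 2371 raised. Row 5787 had 822, 742 and 1048 CPM on d0 and 6.74, 6.84 and 6.64 CPM on d1, a log2FC of -7.01 ± 0.17 (SE; FDR 8.52e-16). It dropped from rank 115 to rank 10109 and stood at a mean of 4.66 CPM on d12. Row 9262 had 352, 539 and 433 CPM on d0 and 2.30, 3.35 and 3.47 CPM on d1, a log2FC of -7.17 ± 0.18 (SE; FDR 9.59e-16). Row 18234 had 303, 453 and 244 CPM on d0, highest in replicate B, and 0.717, 1.74 and 0.867 CPM on d1.

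Every d0 library of these rows was more than 100 CPM above every d1 library. Row 8628 had 175, 273 and 181 CPM on d0 and 2.15, 1.48 and 0.867 CPM on d1. Row 6666 had 135, 134 and 148 CPM on d0 and 0.574, 0.268 and 1.30 CPM on d1, and a mean of 0.706 CPM on d12. Rows 1292 and 17105 varied widely on d0, between 54.4 and 143 CPM in row 1292 and between 56.2 and 119 CPM in row 17105. In both rows, all d1 libraries were under 1 CPM. Row 20088 fell from between 55.4 and 77.6 CPM to between 0.537 and 0.578 CPM, and was at a mean of 6.04 CPM on d12. For all 10 rows, including rows 11203 and 21883 below, the call on d12 against d0 was lowered.

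Rows that were gone on d1 numbered 52. They had at least 5 CPM in each d0 library and at most 3 counts in each d1 library, which is 0.403 to 0.433 CPM. This floor covers counting error only. Because the d1 libraries were deeper, the limit was stricter for them than for d0, and with all libraries thinned to 3556607 counts the number was 114. Without d0 replicate B it was 70. Of the 52 rows, 33 were called lowered, against 32.7% of all rows tested, but the limits that chose them favoured this call. The other 19 had an FDR of at most 0.05 but an average log2CPM that did not exceed 2, and were not called. The highest of the 52 was row 11203. It had 286, 341 and 247 counts in d0 replicates A, B and C and 0, 2 and 1 counts in d1 replicates A, B and C. Its summed level fell 532-fold (95% counting interval 182 to 2586).

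Row 21883 had 199, 373 and 131 counts on d0 and 1, 0 and 3 counts on d1, and was at 0 CPM in all later groups. Row 159 had 87, 124 and 83 counts on d0 and 1, 2 and 1 counts on d1. Rows 9016 and 16470 also had more counts in d0 replicate B than in A or C, with 163 in row 9016 and 156 in row 16470. Few of the 52 rows came back. On d12, 2 of them were at 5 CPM or more in each library, and 28 were at 3 counts or fewer in each library.

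Rows that were new on d1, with at most 3 counts in each d0 library and at least 5 CPM in each d1 library, numbered 47. All 47 were called raised, against 34.7% of all rows tested, but the limits that chose them made this call likely. Here too the floor on d0, between 0.662 and 1.03 CPM, is a limit of counting only, and lower levels on d0 were not detectable. At equal depth the number was 60, and without d0 replicate B it was 56. Most were low on d1, with a median of 10.7 CPM. The highest was row 17460, with 2, 0 and 1 counts in d0 replicates A, B and C and 2045, 2396 and 2133 counts in d1 replicates A, B and C. These were 293, 321 and 308 CPM on d1. Its summed level rose 1199.6-fold (95% counting interval 410.3 to 5819). Row 17460 peaked on d1 among the days measured, with means of 73.1 CPM on d4 and 13.1 CPM on d12.

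Row 20628 followed a like course. It had 0, 0 and 1 counts on d0 and 1027, 978 and 997 counts on d1, a level of 141 CPM that was 20.3 CPM on d12. Row 14771 had 1, 1 and 2 counts on d0 and 754, 957 and 818 counts on d1. Rows 5340 and 4500 were higher later than on d1. Row 5340 had a mean of 91.1 CPM on d1 and 162 CPM on d4, and row 4500 had 84.0 CPM on d1 and 137 CPM on d4. Of the 47 rows, 33 were at 5 CPM or more in each library of d12 and 4 were back at 3 counts or fewer in each.

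The other largest rises were seen in rows that were low on d0. Row 20866 had 4.00, 5.73 and 11.01 CPM on d0 and 559.6, 522 and 554 CPM on d1, a log2FC of 6.39 ± 0.14 (SE; FDR 3.50e-16). It reached rank 109 on d1. Row 281 had 5.42, 3.53 and 1.72 CPM on d0 and 293, 295 and 311 CPM on d1, a log2FC of 6.31 ± 0.13 (SE; FDR 2.05e-16). Its d12 mean was 366 CPM. Rows 7456, 6601 and 5803 had 3 counts or fewer in at least 1 d0 library. Row 7456 had between 0.662 and 3.44 CPM on d0 and between 215 and 222 CPM on d1. Row 6601 had between 0.688 and 2.59 CPM on d0 and between 160.1 and 172 CPM on d1. Row 5803 went from under 1 CPM in each d0 library to a mean of 71.0 CPM on d1, and its mean was 286 CPM on d4.

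Most rows called on d1 had the same call on d12, by the same test against the same d0 libraries. Of the 4733 rows raised on d1, 3420 were raised on d12 against d0, or 72.3% (70.9% to 73.8% with each d0, d1 or d12 library left out in turn). Over all rows tested, 38.7% were raised and 33.8% lowered on d12 against d0. Another 880 of the raised rows were not called on d12, and 433 were lowered. Of the 4469 rows lowered on d1, 3358 were lowered on d12, or 75.1% (73.9% to 75.8% with each library left out). Another 567 were not called and 544 were raised. Among rows changed at least 4-fold on d1, 86.3% of the raised and 87.3% of the lowered rows had the same call on d12. Without d0 replicate B, the shares were 73.2% and 75.8% for all calls. Both comparisons use the d0 libraries, so a d0 value that is off by chance moves d1 and d12 the same way, and the shares carry no test. From d1 to d12 itself, 31.5% of all rows tested were raised and 32.0% lowered, with 4298 and 4364 calls.

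The size of the change shrank only a little in the middle of the list, and the quartiles moved apart. The 504 rows raised at least 4-fold had a median log2FC against d0 of 2.64 on d1, 2.31 on d4, 2.33 on d8 and 2.30 on d12. The 1063 rows lowered at least 4-fold had a median of -3.06 on d1, -2.43 on d4, -2.60 on d8 and -2.75 on d12. The 11 raised rows with no count on d0, and the 6 and 5 lowered rows with no count on d1 and d12, were also set to a floor of 3 counts over the group. This left the d1 and d12 medians the same to 2 decimals. Rows were picked by their d1 value, and picking extremes favours a smaller value later. The 4-fold limit on d1 also narrows the spread on that day. From d1 to d12 the quartiles went from 2.24 and 3.53 to 1.44 and 3.68 in raised rows. In lowered rows they went from -3.98 and -2.45 to -4.60 and -1.34. Of the raised rows, 275 had their highest mean of the culture days on d1 and 105 on d12. Of the lowered rows, 539 had their lowest mean on d1 and 276 on d12.

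**Figure D5:**
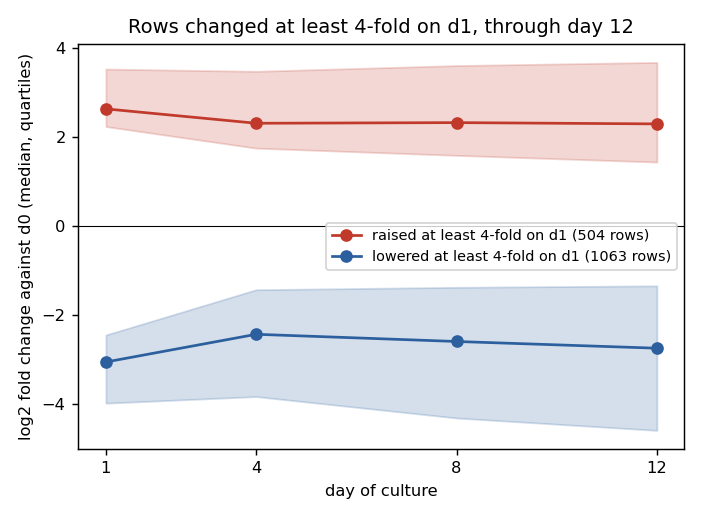
Log2 fold change against d0 by day of culture, for the 504 rows raised (red) and the 1063 rows lowered (blue) at least 4-fold on d1. Lines give the median and bands the quartiles. The medians stay at 2.30 and -2.75 on d12, while the bands widen after d1. The 4-fold limit used to choose the rows narrows the bands on d1.

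In shares of all counts, the 504 rows went from 0.426 ± 0.0317% on d0 to 3.81 ± 0.0186% on d1 and 3.95 ± 0.0153% on d12 (SD, n = 3 each). The 1063 rows went from 14.8 ± 0.6% on d0 to 2.30 ± 0.0407% on d1. They regained part of this by d4, with 4.48 ± 0.0319%, and stood at 4.11 ± 0.0498% on d12 (SD, n = 3 each). The rows with deep falls thus held more of the d0 libraries than those with deep rises held of the d1 libraries. The sets also differed in size, 1063 against 504 rows, which depended on TMM scaling. With library totals they were 834 and 800 rows, and the counts held by those sets were not measured. Since the rows were selected on d0 and d1, their shares in these groups are a description.

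Sorted HSCs of chow-fed and of vehicle-treated mice gave an outside scale for the suspension cells. They were sequenced without culture, in other experiments of the series, and these experiments and the 2 hours in suspension cannot be told apart. Turnover was between 23.1% and 28.1% for pairs of a d0 and a chow library and between 21.7% and 28.3% for pairs of d0 and vehicle. For d1 it was higher, between 33.7% and 37.3% against chow and between 33.0% and 37.1% against vehicle. Pairs of a chow and a vehicle library differed by 8.74% to 16.3%. Every d0 library was thus closer to every mouse library than any d1 library was, while the distance from d0 to the mouse libraries overlapped that from d0 to d1.

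Rows new and gone on d1 were also looked up in the mouse libraries. CPM of the mouse libraries used library totals without TMM factors, so the 5 CPM limit is not quite the same as on d0 and d1. New rows were chosen to be at the floor on d0, and gone rows to be at 5 CPM or more on d0. How many of all rows with such d0 levels were at the floor or at 5 CPM in the mouse libraries was not measured. The counts of new and of gone rows are therefore a description and cannot be set against each other. Of the 47, 25 had at most 3 counts in each of the 8 mouse libraries and none reached 5 CPM in all 8. Of the 52 rows gone on d1, 17 reached 5 CPM in all 8 and 9 had at most 3 counts in each.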

How the data were processed

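RNA of 15 IVT libraries was compared, with counts of 8 control libraries from mice as reference. The authors aligned reads to mm10 with STAR and deposited raw exon counts per gene made with Homer, on both strands and with at most 3 reads per position; versions are not given in the sources used here. Groups and replicate letters were taken from the labels and columns from their titles. Rows were kept by filterByExpr of edgeR 4.0.16 (R 4.3.3), scaled with TMM factors, and tested with glmQLFit and glmQLFTest with all 15 libraries in 1 fit. Calls needed an FDR of at most 0.05 and an average log2CPM above 2. Rows with at least 1 count were counted after thinning to 3556607 counts (seed 1). On simulated d1 and d0 counts of 12900 rows, 93% of rows changed 2-fold and 97% of rows changed 4-fold were recovered. Wrong calls were 2.06% of all. The simulation used the spread shared by all 15 libraries, with a biological coefficient of variation of 0.0766, against 0.202 in d0 alone. It also changed only 100 rows at each fold, so these rates do not carry over to the real comparison.

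Rows named were the 10 highest of d0 and of d1, the 10 largest rises and falls among called rows without overlap and with at least 50 CPM in the higher group, and the 5 highest new and gone rows. The rows and limits were chosen with earlier results of these data known. Alternatives were other tests (the edgeR exact test, DESeq2 1.42.0, limma 3.58.1), scalings, filters, limits, a replicate block and leaving out each library. Counts of rows that are called both on d1 against d0 and on d12 against d1 are not given, since both use the d1 libraries. Cell type markers were not used, for want of usable identifiers. The floor was 3 counts. Reads are not independent molecules, so intervals and floors cover counting error only.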

Additional observations from a re-analysis of the deposited data

How the results depend on the processing

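The numbers of raised and lowered rows, and of rows lowered at least 4-fold, stayed within 1.5 times their value under every test, scaling, filter and left-out library tried. The lowest counts of raised and lowered rows were 4055 raised (limma voom with a variance per group) and 3315 lowered (library totals). The fit of the 6 libraries alone gave 4298 raised and 3896 lowered rows. The edgeR exact test gave 4340 and 3910, DESeq2's test 4423 and 4712, and DESeq2's size factors 4430 and 4724. Without a filter there were 4902 and 4212, and without the log2CPM threshold 5117 and 5287. Library totals raised the at least 4-fold rises to 800. Leaving out each d0 or d1 library gave 4577 to 4937 raised and 4283 to 4418 lowered rows, and 488 to 562 raised and 960 to 1127 lowered at least 4-fold. Of the calls, 89.8% of the raised and 86.3% of the lowered rows were the same in all 6 of these fits. The voom fit and the thinning of new and gone rows were added after seeing the data. Replicate letters did not pair the libraries. Same-letter d0 and d1 libraries had correlations of 0.037, 0.015 and -0.069 of their deviations from the group means. With the letter as a replicate block, 4720 rows were raised and 4436 lowered, and 72.1% and 74.95% of them were kept to d12.

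The kept share of raised and of lowered rows was 76.6% and 71.0% with library totals, 75.7% and 76.9% on d8 in place of d12, 86.3% and 87.3% for rows changed at least 4-fold, and 66.3% and 67.8% when at least 50% of the d1 log2FC had to be left. Leaving out each d0, d1 or d12 library gave 70.9% to 73.8% and 73.9% to 75.8%. The share of abundant d0 rows lowered at least 4-fold was 29% in the 100 highest rows. The share lowered at least 2-fold was 52.2% of the 500 rows. New and gone rows followed the limits. They were 10 and 6 with a floor of 0 counts, 146 and 209 with a floor of 10 counts, 196 and 303 at a level of 1 CPM, and 17 and 3 at 20 CPM. At equal depth 114 rows were gone. Leaving out libraries gave 50 to 59 new and 53 to 70 gone rows. The differences in detected rows and in the share of the 100 highest rows were negative under all alternatives tried, and the turnover lay between 26.9% and 28.3%. Leaving out a library leaves 2 against 3, where the smallest exact p is 0.2. Depth also limits new and gone rows, and the shallowest library had 3556607 counts.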

Other observations

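The identifiers of the table were looked at further, as listed and after a shift of lines. As listed, 47.6% of the 1461 receptor rows, 48.3% of 1363 rows of microRNAs, small nucleolar RNAs, defensins, taste receptors and keratin-associated genes, and 50.4% of 561 rows of ribosomal, proteasome and other housekeeping genes reached 4 CPM over the d0 and d1 libraries. A shift varying along the table was then set on the receptor and housekeeping rows. With it, 16.9% of receptor rows reached this level, and 34.0% of the microRNA and defensin class, which had not been used to set it. Set on the microRNA and defensin class with the housekeeping rows, the shift gave 22.5% in that class and 38.8% of the receptor rows. The shifts ran from -46 to 1 lines in the first case and from -32 to 2 in the second, with medians of -21 and -19 lines. They were chosen to lower the share in the class that set them, and the other class is the measure. The shift was tried after seeing the data, it was not precise enough to name a row, and no row was named from it.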
